A study of Zea mays with 4 samples.

Results

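The block described here is the interior of maize chromosome 4 from 40 to 130 Mb, where peaks of chromatin immunoprecipitation sequencing (ChIP-seq) against the transcription factor P1 lay densely in both duplicates. Its members are all peaks of chromosome 4 whose midpoint lies from 40 Mb up to, but not including, 130 Mb. A total of 2110 of 35143 peaks met this rule, 1203 of 20424 in list 1 and 907 of 14719 in list 2. The block covers 90 Mb, from 16.6% to 53.8% of the span of peak positions on the chromosome. It was chosen from the density of these same peaks. Its density, and every other value of the same peak calls, is therefore given as a description, and no test was run on it.

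P1-rr plants, whose pericarp expresses P1, were set against near-isogenic P1-ww plants, whose pericarp does not. Pericarp, the maternal tissue around the kernel, was taken from both genotypes at 14 days after pollination, and P1 polyclonal antibodies were used on both, with 2 libraries of each. List 1 sets P1-rr replicate 1 over P1-ww replicate 1, and list 2 sets P1-rr replicate 2 over P1-ww replicate 2. The P1-rr line came from stock 65-CFS-305, backcrossed into A619, the inbred that supplies P1-ww. The donor stock also carries the related gene P2, which A619 lacks. Donor DNA is described by the submitters on chromosomes 1 and 6, and none is described on chromosome 4. The labels speak of biological duplicates. The lists hold no reads and sequencing depth was not analysed here, and the intervals given with the values cover counting error only.

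P1, the product of pericarp color1, is an R2R3-MYB protein that activates genes of the flavonoid pathway and gives the pericarp its red phlobaphene pigment. Such factors bind short DNA motifs, and ChIP-seq reports the places where fragments held by the antibody pile up above a control. The interiors of maize chromosomes are known to be rich in retrotransposons and poor in genes around the centromere, while genes crowd towards the chromosome ends. The sources used here do not give the genome build of the lists, and therefore no gene, promoter or sequence is assigned to any peak of the block.

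Peaks were denser in the block than on the rest of chromosome 4 by a similar factor in both duplicates. List 1 had 13.4 peaks per Mb in the block (exact Poisson 95% interval 12.6 to 14.1) against 9.43 on the rest of the chromosome (8.95 to 9.93), a ratio of 1.42 (exact conditional binomial 95% interval 1.31 to 1.53). List 2 had 10.1 peaks per Mb in the block (9.43 to 10.8) against 7.18 on the rest (6.76 to 7.62), a ratio of 1.40 (1.28 to 1.53). The block thus took 45.7% of the list 1 peaks and 45.5% of the list 2 peaks of chromosome 4 on 37.3% of its span. At the density of the rest of the chromosome it would have held 849 list 1 and 646 list 2 peaks, 354 and 261 fewer than were found. Measured by sequence under peaks, the ratio was 1.45 in list 1 and 1.44 in list 2. There were 1.33 list 1 peaks for each list 2 peak in the block, against 1.31 on the rest of the chromosome.

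The same 90 Mb span held fewer peaks on each of the 9 other chromosomes in both lists. The pooled density of that span was 10.6 per Mb in list 1 and 7.78 in list 2, so the block was 1.26-fold (1.19 to 1.34) and 1.30-fold (1.21 to 1.39) above it. In list 1 the nearest span was that of chromosome 5, with 1108 peaks or 12.3 per Mb (11.6 to 13.1), an interval that overlaps the block's. It was followed by chromosome 10 with 11.2 per Mb and chromosome 7 with 11.0, and the lowest was chromosome 2 with 9.70. In list 2 the nearest was again chromosome 5, with 767 peaks or 8.52 per Mb (7.93 to 9.15), an interval below the block's. Both intervals cover counting error only and are too narrow, because window counts varied more than that. This gap is therefore not secure. The lowest list 2 span was that of chromosome 9, with 6.93 per Mb. The contrast between the span and the rest of its own chromosome did not put chromosome 4 first in both lists. In list 1 chromosome 4 had the highest ratio of the 10, ahead of chromosome 5 at 1.32, but in list 2 its 1.40 stood behind 1.44 on chromosome 7 and 1.42 on chromosome 8. The rest of chromosome 4, at 7.18 list 2 peaks per Mb, was itself the densest of the 10 remainders in that list. The span covers different parts of chromosomes of unequal length: it ends at 43.1% of chromosome 1 and at 86.6% of chromosome 10.

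**Figure D1:**
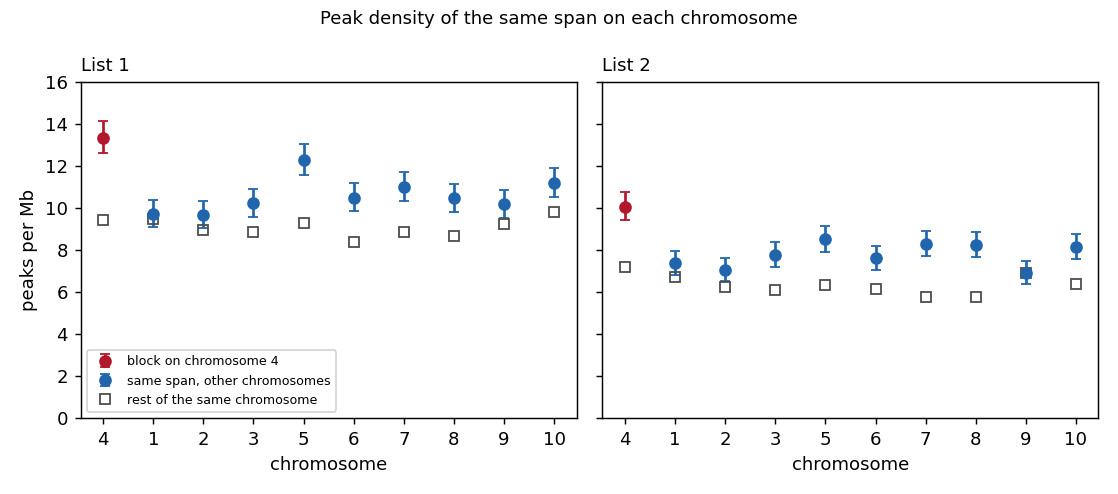
Peaks per Mb (y axis) in the block and in the same span of the 9 other chromosomes (x axis), for list 1 on the left and list 2 on the right. Circles with bars give the density and its exact Poisson 95% interval, and open squares give the rest of the same chromosome. The block's circle, 13.4 in list 1 and 10.1 in list 2, is the highest in each panel, with chromosome 5 next.

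The block was not evenly dense: both duplicates showed a pair of dense stretches with a sparser one between them. From 40 to 60 Mb list 1 had 15.6 peaks per Mb and list 2 had 12.2, and from 85 to 120 Mb they had 15.2 and 12.0. Between these stretches, from 60 to 85 Mb, list 1 had 10.3 (9.10 to 11.7) and list 2 had 7.20 (6.19 to 8.33). The last stretch, from 120 to 130 Mb, had 10.2 (8.32 to 12.4) and 6.50 (5.02 to 8.28). The intervals of these 2 sparser stretches contain the density of the rest of chromosome 4, in each list. The 4 stretches were drawn after the windows had been seen.

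In complete windows of 5 Mb, 16 of the 18 list 1 windows of the block were denser than the rest of the chromosome, as were 15 of the 18 list 2 windows. Many windows outside the block also exceeded that density, and the block was chosen by density. These counts are therefore no separate result. The highest list 1 window was 115 to 120 Mb, with 104 peaks, followed by 45 to 50 Mb with 89 and 100 to 105 Mb with 82. In list 2 the highest was 50 to 55 Mb, with 82 peaks, followed by 100 to 105 Mb with 72 and 115 to 120 Mb with 65. The window of 50 to 55 Mb was the only one of the 18 in which list 1, with 80 peaks, had fewer than list 2. The lowest window in the block was 65 to 70 Mb in list 1, with 39 peaks, and the last 5 Mb in list 2, with 28.

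At the left border the change was abrupt, and at the right border it was not. The 5 Mb before 40 Mb held 41 list 1 and 26 list 2 peaks, and the 5 Mb after it held 67 and 47. The 5 Mb before 130 Mb held 42 and 28, while the 5 Mb after it, outside the block, held 53 and 39. The densest span of 90 Mb on chromosome 4, moved in steps of 1 Mb, ran from 36 to 126 Mb in list 1 (1209 peaks) and from 34 to 124 Mb in list 2 (909 peaks), 6 and 2 peaks more than the block held. A dense window also lay elsewhere on the chromosome: 210 to 215 Mb held 80 list 1 peaks and 48 list 2 peaks.

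**Figure D2:**
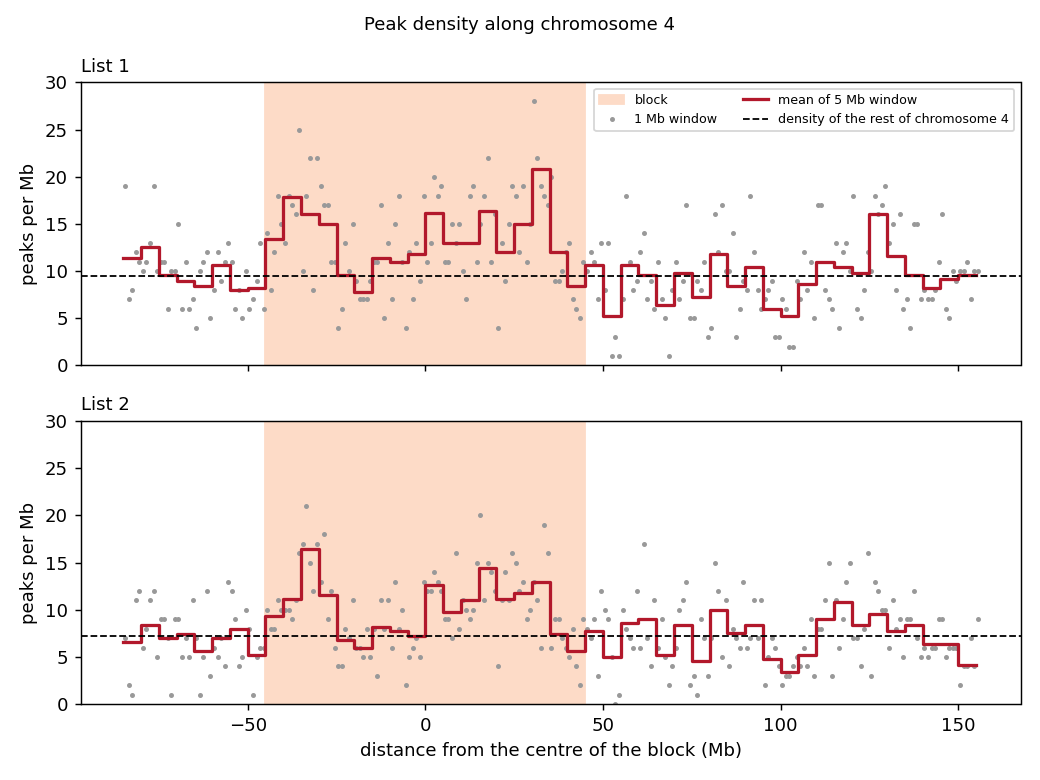
Peaks per Mb (y axis) along chromosome 4, by distance in Mb from the centre of the block (x axis), for list 1 above and list 2 below. Grey points are 1 Mb windows, the red line gives the mean of each 5 Mb window, the shaded part is the block and the dashed line is the density of the rest of the chromosome (9.43 and 7.18). The red line shows 2 humps in the shaded part with a dip between them in both lists.

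Single 1 Mb windows of the block held from 4 to 28 list 1 peaks (median 13) and from 2 to 21 list 2 peaks (median 10). On the rest of the chromosome they held 1 to 19 (median 9) and 0 to 17 (median 7). More peaks than that median window were found in 68 of the 90 block windows for list 1, where 49% of all windows of the 10 chromosomes exceeded it, and in 66 for list 2, where 40.2% did. In 57 of the 90 windows both lists exceeded it, and in 13 neither did. The share of windows elsewhere in which both or neither exceeded it was not computed. Each list alone exceeded it in 47.7% (list 1) and 41.1% (list 2) of the windows on the rest of chromosome 4. The block was chosen by density, so these counts of windows are no separate result. The densest list 1 windows began at 115 Mb (28 peaks, 13 in list 2), 49 Mb (25 and 16), 52 Mb (22 and 15), 54 Mb (22 and 17) and 102 Mb (22 and 15), the last 3 tied with the window at 116 Mb. The densest list 2 windows began at 51 Mb (21 peaks, 18 in list 1), 100 Mb (20 and 15), 118 Mb (19 and 18), 56 Mb (18 and 17) and 50 Mb (17 and 10), the last tied with the window at 54 Mb. All 10 of the windows with values lay in the dense stretches, which were drawn after the windows had been seen. None of the 10 was named by both lists.

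Counts of the 2 lists moved together from window to window inside the block. Across its 90 windows Pearson's r was 0.59 and Spearman's rho 0.59. Across the 151 windows of the rest of chromosome 4 they were 0.47 and 0.49, and across the 810 windows of the same span elsewhere 0.45 and 0.46. Windows are not replicates, and both lists share the genome, its repeats and the places where reads can align, which were not examined. The variance of the block's window counts was 1.96 times their mean in list 1 and 1.68 times in list 2, so the Poisson intervals given above are too narrow. The binomial intervals of the density ratios rest on the same counting error and are too narrow as well.

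**Figure D3:**
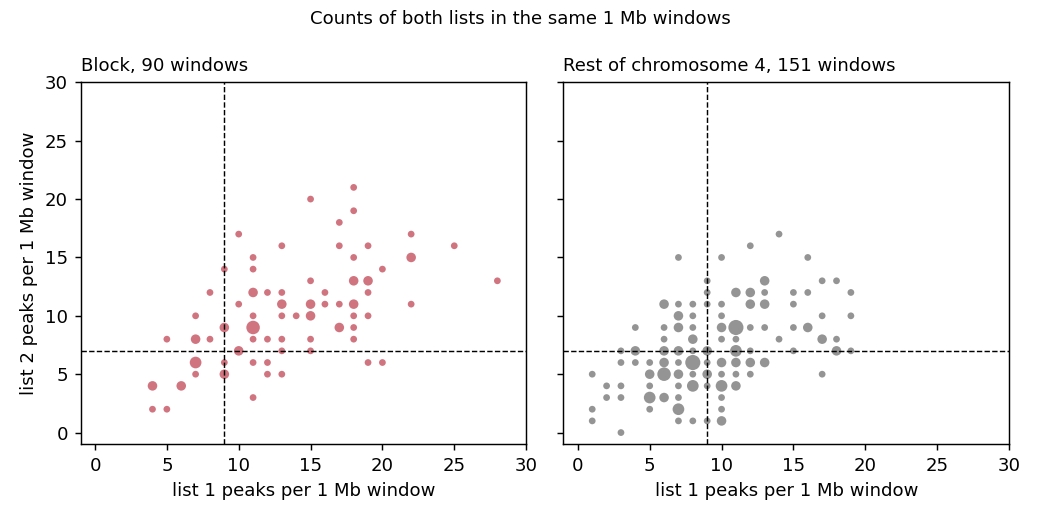
Number of list 2 peaks (y axis) against list 1 peaks (x axis) in the same 1 Mb windows, for the 90 windows of the block on the left and the 151 of the rest of chromosome 4 on the right. The area of a point grows with the number of windows at that pair of counts, and dashed lines mark the median window of the rest of the chromosome (9 and 7). In the block 57 of 90 windows lie above both lines. The block was chosen by density, so this count is no separate result. On the rest of the chromosome 47.7% of windows lie above the list 1 line and 41.1% above the list 2 line. The share above both lines elsewhere was not computed.

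Peaks stood closer together in the block than on the rest of chromosome 4, while the share with a neighbour within 1 kb was close in both. Closer spacing goes with the higher density by which the block was chosen, and is no separate result. The nearest other centre in the same list lay at a median of 21.5 kb in the block and 29.0 kb on the rest of chromosome 4 for list 1, and at 26.7 and 42.0 kb for list 2. A neighbour within 10 kb was present for 31.3% of list 1 block peaks against 26.8% on the rest, and for 24.1% of list 2 block peaks against 19.1%. The same span of the other chromosomes had 27.0% in list 1 and 22.2% in list 2, with median distances of 26.7 and 35.4 kb. A neighbour within 1 kb was present for 2.91% of list 1 block peaks (35 peaks) against 3.01% on the rest, and for 2.43% of list 2 block peaks (22 peaks) against 2.21%. On the same span of the other chromosomes these shares were higher, 3.63% in list 1 and 3.38% in list 2. The longest stretch of the block without a peak centre measured 977 kb in list 1, starting at position 105258777, and 1091 kb in list 2, starting at 79227119. The rest of the chromosome had longer empty stretches, up to 1406 kb in list 1 and 1881 kb in list 2.

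Peak scores, which are the authors' own and on a scale not stated in the files, had nearly the same centre in the block as elsewhere. The list 1 median was 282.63 in the block and on the rest of chromosome 4. List 1 scores are tied throughout: the 1203 block peaks took 110 distinct scores, and the 1428 peaks on the rest took 108. Equal medians are therefore a coarse comparison and do not show equal scores. The upper part of list 1 was fuller in the block than on the rest: its upper quartile was 882.38 against 621.33. The pooled same span of the other chromosomes had 724.22, and that of chromosome 3 alone had 936.01, above the block's. Scores above the list's own upper quartile, 672.49, belonged to 28.2% of list 1 block peaks (95% Wilson interval 25.7 to 30.8) and to 22.4% on the rest (20.3 to 24.6). On the same span of the other chromosomes that share was 25.7% (24.8 to 26.6), whose interval overlaps the block's. For chromosome 3 alone it was 28.6% (25.7 to 31.6), so the block was not the highest. In list 2 the fuller upper part of the block was not seen. There the medians were 67.18 in the block and 69.95 on the rest, and 22.4% of block peaks (19.8 to 25.2) exceeded the list's upper quartile of 111.47 against 23.4% on the rest (21.0 to 26.0).

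The highest list 1 scores are heavily tied. A score of exactly 3100 was held by 66 block peaks, 5.49% of them (4.34 to 6.92), against 63 or 4.41% on the rest (3.46 to 5.60). The same span of the other chromosomes had 4.97% (4.53 to 5.45). Chromosomes 8 and 7 alone had 5.83% and 5.65% there, above the block's share. The score of 4 further block peaks was 3151.69, at positions 47405746 to 47405945, 63535802 to 63536001, 98470437 to 98470636 and 109471297 to 109471496. None of these 4 overlapped a list 2 peak, and the nearest list 2 centre lay 21.6 to 206 kb away. In list 2 the highest block scores were 695.59 at 56384852 to 56385075, 681.02 at 87441295 to 87441494 and 527.88 at 57799567 to 57799766. None of these overlapped a list 1 peak either, with the nearest centre 15.0 to 34.6 kb away. With 2.23% of all list 1 peaks and 3.08% of all list 2 peaks overlapping the other list, an overlap among so few peaks would be rare at these shares. Whether sharing depends on score was not tested.

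Peak widths in the block were close to those of the rest of each list. In list 1, 95.4% of block peaks (94.1 to 96.5) had the smallest width, 200 bp, against 96.1% on the rest of chromosome 4 (95.0 to 97.0). In list 2 that share was 28.0% (25.2 to 31.0) against 30.9% (28.2 to 33.7), with median widths of 350 and 332.5 bp. The widest list 1 peaks of the block measured 596 bp at 91636567 to 91637162, 595 bp at 104024992 to 104025586 and 595 bp at 109861859 to 109862453. The widest list 2 peaks measured 1306 bp at 82629180 to 82630485, 1095 bp at 49821107 to 49822201 and 1051 bp at 116471637 to 116472687. These 6 peaks had no overlap with the other list. Only 2.23% of all list 1 peaks and 3.08% of all list 2 peaks had one, so this absence is no separate result. Scores of the 6 ran from 299.31 to 643.27 in list 1, above the block's median, and from 47.23 to 65.22 in list 2, below it.

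Few block peaks were found in both duplicates, and their share was near that of the whole lists. In list 1, 26 of the 1203 block peaks shared 1 bp or more with a list 2 peak, or 2.16% (1.48 to 3.15), where 2.23% of the whole list did. In list 2, 26 of the 907 block peaks overlapped list 1, or 2.87% (1.96 to 4.17), where 3.08% of the whole list did. On the rest of chromosome 4 the shares were 1.96% and 2.57%, with 28 peaks in each list, and on the same span of the other chromosomes 2.49% and 3.40%. All these intervals overlap, so a difference in sharing was not detectable with this number of peaks. Per length the block held 0.289 shared regions per Mb (0.189 to 0.423), against 0.185 on the rest (0.123 to 0.267) and 0.264 on the same span elsewhere (0.230 to 0.302).

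**Figure D4:**
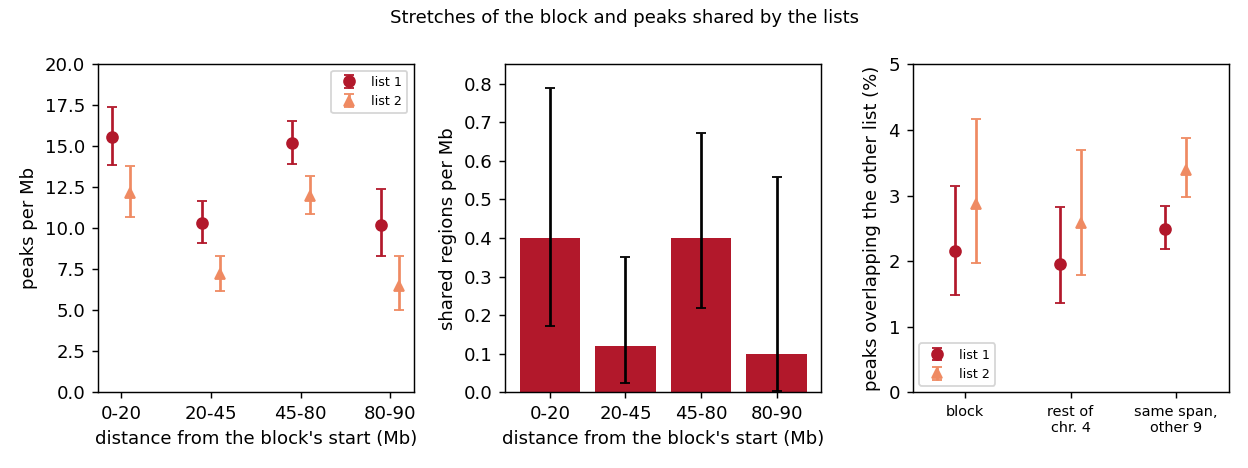
Left, peaks per Mb in the 4 stretches of the block, given by distance from its start in Mb, for both lists. Middle, shared regions per Mb in the same stretches. Right, the percent of peaks that overlap the other list in the block, on the rest of chromosome 4 and on the same span of the other 9 chromosomes. Bars around points are exact Poisson (left, middle) or Wilson (right) 95% intervals. The first and the third stretch are highest on the left, and all intervals overlap in the middle panel and within each list on the right.

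The 26 shared regions are each the union of an overlapping pair of peaks. There were 8 from 40 to 60 Mb, 3 from 60 to 85 Mb, 14 from 85 to 120 Mb and 1 from 120 to 130 Mb. Both dense stretches held 0.400 per Mb, against 0.120 (0.0247 to 0.351) in the stretch between them, with intervals that overlap. As a share of the list 1 peaks of each stretch they came, in the same order, to 2.57% (1.31 to 4.99), 1.16% (0.396 to 3.36), 2.63% (1.57 to 4.37) and 0.980% (0.173 to 5.35), so no difference between stretches was detectable. The regions were 225 to 926 bp long (median 567). In 14 of the 26 the list 1 peak lay wholly inside the list 2 peak, and in 5 the overlap reached 50% of both peaks. On the rest of chromosome 4 these counts were 14 and 4 of 28, and on the same span elsewhere 88 and 53 of 214. List 2 peaks of the 26 had a median width of 543 bp, against 340 bp for unshared list 2 peaks of the block. Shared list 2 peaks were wider elsewhere too: 565.5 against 322 bp on the rest of chromosome 4, and 459 against 344 bp on the same span. The part of width in the sharing was not tested. Median list 2 scores were 53.85 for the 26 against 69.70 for the unshared, and median list 1 scores 260.28 against 282.63. Shared peaks also scored lower elsewhere. In list 2 the medians were 61.4 against 70.05 on the rest of chromosome 4 and 63.19 against 69.70 on the same span. In list 1 they were 237.92 against 282.63 in both. None of the 66 list 1 peaks tied at 3100 was among the 26. Peaks at that score were in 1 of the 28 shared regions on the rest of chromosome 4 and 7 of the 214 on the same span elsewhere. Both peaks were in the higher-scoring 50% of their list in 2 of the 26 regions, against 5 of the 28 and 40 of the 214. With 2.16% of list 1 block peaks shared, few of 66 would be shared if sharing did not depend on score. Whether it does was not tested.

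The best-ranked shared region of the block, by the mean of its ranks in the lists, was at 94944978 to 94945202, where the list 1 peak scored 621.33, the list 2 peak scored 112.17 and 175 bp overlapped. The next was at 87242775 to 87243376, with the highest list 1 score of any shared region of the block, 2562.13, and 61.12 in list 2. The third was at 50076535 to 50076873 (282.63 and 127.92), where the peaks met over 61 bp. The first of these 3 and the next stood in the second dense stretch and the third in the first dense stretch. In the first and the third both peaks were in the higher-scoring 50% of their list.

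The fourth region was at 95252860 to 95253115 (1044.51 in list 1 and 61.12 in list 2), 308 kb from the first. The fifth was at 103398570 to 103398919 (520.80 and 65.82). The sixth, at 87149283 to 87149824 (237.92 and 103.28), lay 93.5 kb from the second. The seventh, at 104850630 to 104851456, had the highest list 2 score of the 26, 135.08, beside 158.94 in list 1, but its peaks touched over only 6 bp.

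The eighth was at 90452483 to 90453228 (471.53 in list 1 and 57.31 in list 2), the ninth at 56421142 to 56421704 (1723.86 and 47.37) and the tenth at 103920612 to 103921172 (1492.65 and 43.33). In each of these 3 a list 1 peak from the higher-scoring 50% of its list met a list 2 peak from the lower-scoring 50%. The ninth had the closest partner in the block: another shared region, at 56415051 to 56415377 (328.46 and 54.16), lay 6.21 kb away. The list 2 peak with the highest score of the block, at 56384852 to 56385075, had its nearest list 1 centre in that partner, 30.2 kb away. Of the 10 regions, 8 lay between 85 and 120 Mb and 2 between 40 and 60 Mb.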

How the data were processed

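Libraries were made from P1-rr and P1-ww pericarp, 2 per genotype. Per the submitters' processing notes, reads were handled with CASAVA 1.4 and Bowtie. The deposited lists name their peaks after MACS. The sources used here give neither its version and settings nor the build. Each list was called by the authors on 1 P1-rr and 1 P1-ww library, and the score of each peak is the deposited value of the peak caller, on an unstated scale. It was used only to describe and rank peaks within a list. The smallest score was 40.22 in list 1 and 40.0 in list 2. Depth per library and reads per peak were not analysed here, and 0 value columns were left unmapped.

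Starts were taken as 0-based and are printed 1-based. Each chromosome's span was taken to end at the last peak of either list. Overlaps of at least 1 bp were found in Python 3.11.15 (pandas 2.3.3, numpy 2.4.6). An independent count with bedtools 2.31.1 gave the same 456 and 453 peaks. Intervals are 95% exact Poisson, Wilson or exact conditional binomial from scipy 1.17.1, and cover counting error only. Figures used matplotlib 3.10.9. The density and overlap computations were tested on simulated data.

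The block and the rules for named items were chosen with earlier results of these data known. Named were 10 shared regions, those of best rank averaged over the lists, the 5 densest 1 Mb windows and the 3 widest peaks per list, the 3 highest scores of list 2, and list 1 scores above the tied 3100. No gene was named: the gene table at hand is of 1 assembly, which no source ties to the lists, and was used for nothing.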

Additional observations from a re-analysis of the deposited data

How the results depend on the processing

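Alternatives gave 63 values, of which 4, with the densest 5 Mb window of the block left out, were chosen after seeing the data. A value counted as moved when it left the main value's 95% interval: 52 stayed inside it and 11 moved. The block was chosen by the density of these same peaks. Density ratios above 1 were thus largely fixed in advance, and only their size under each setting is described. All 38 alternative density ratios were above 1, but the interval of list 1 peaks wider than 200 bp against the same span of the other chromosomes, 0.925 to 1.66 around 1.25, includes 1. Against the rest of chromosome 4 they ran from 1.36 to 1.68 in list 1 and from 1.27 to 1.46 in list 2. Against the same span of the other chromosomes they ran from 1.22 to 1.29 in list 1 and from 1.25 to 1.34 in list 2. The ratio to the rest of chromosome 4 moved to 1.68 with list 1 peaks wider than 200 bp, which are few, and to 1.27 with list 2 peaks of 200 bp. The difference of median list 1 scores, 0 in the main comparison, was 44.71 without the peaks tied at 3100, with an interval of 0 to 44.71. List 1 scores are heavily tied, so such medians move in coarse steps. The share of list 1 block peaks that overlapped list 2 moved to 0.416% with 50% of both peaks, 1.08% with centres within 100 bp, 4.49% within 500 bp and 0.311% in the higher-scoring 50% of each list. The same settings gave 0.551%, 1.43%, 5.95% and 0.460% for list 2. The whole lists moved likewise with the definitions of 50%, 100 bp and 500 bp. They gave 0.534%, 0.999% and 4.03% for list 1, and 0.741%, 1.39% and 5.56% for list 2. For the higher-scoring 50% the whole-list share was not computed. Apart from the definitions themselves, the cause was not tested. Densities, spacing within a list, scores and widths are given per list, so leaving out a duplicate leaves the other list's value. The overlap, the window counts set side by side and the distances between the lists need both and have no value from 1 list. No paired analysis was possible because the lists are themselves made within replicate numbers and give no value for a single library.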
